A study of Mus musculus with 4 samples.

Results

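The 10 genes described here encode the proteins of 2 linked death pathways, ZBP1-driven necroptosis and the inflammasome. They were taken from the deposited count table as the rows whose gene name is Zbp1, Ripk1, Ripk3, Mlkl, Casp8, Casp1, Casp4, Gsdmd, Aim2 or Nlrp6, which are 10 of 56748 genes listed and 10 of the 16094 genes with enough counts to be tested. They were selected on the measured difference between p53-/- and WT libraries, with that contrast known, so their differences are given as descriptions with no p-value, and how many of them passed a threshold is given only beside the share of all genes that did.

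Necroptosis is a lytic form of cell death. ZBP1, a sensor of Z-form nucleic acids, or the TNF receptor through RIPK1 engages the kinase RIPK3, which phosphorylates MLKL so that it permeabilizes the plasma membrane, while caspase-8 cleaves the kinases and holds this route in check. Inflammasomes are assemblies in which a sensor such as AIM2 or NLRP6 activates caspase-1. Caspase-1, and caspase-11 after it binds bacterial lipopolysaccharide, cleave gasdermin D into a pore former, which causes pyroptosis. In the intestine these pathways are known for their part in epithelial cell shedding, microbial defence and inflammation.

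Bulk RNA of the small intestine (SI) was sequenced from 2 WT and 2 p53-/- mice, all collected 1 day after total-body irradiation (TBI) with 12 Gy from a Cs-137 source. The p53-/- mice carry a germline deficiency of Trp53 in every cell, so epithelial and immune cells lacked p53 alike, and no unirradiated SI was part of this comparison. The study's methods give age- and gender-matched mice of 8 to 12 weeks, and the sex of these 4 animals is not given in the labels. The libraries are named by the numbers of their columns, 7 and 8 for WT and 9 and 10 for p53-/-. Their totals ran from 15005479 to 22173164 counts. Trp53 itself was at 57.7 and 47.1 CPM (a gene's counts relative to the TMM-scaled total of its library, the unit of the levels below) in WT and at 19.8 and 22.5 CPM in p53-/-. A check list held Trp53 and the p53 targets Cdkn1a, Bax, Bbc3, Mdm2, Phlda3, Eda2r, Zmat3, Ccng1 and Trp53inp1. All 10 genes of that list were lower in both p53-/- libraries, where 24.4% of all genes tested were. Library 10 stood apart from library 9, with 4.59% of its counts on the ribosomal RNA gene Rn18s-rs5 against 0.863%. Xist, the RNA of the inactive X chromosome, was at 0.124 and 0 CPM in WT libraries 7 and 8. In p53-/- it was at 0.175 CPM in library 9 and at 29.2 CPM in library 10. By this marker of female tissue, only library 10 appeared female, so sex appeared unmatched between these libraries despite the stated matching. The part of sex in the differences was not tested. Library 8 stood apart from library 7 in 5 smooth muscle markers, whose summed level was 3672 CPM against 395 CPM. All 8 epithelial markers (Epcam, Cdh1, Krt8, Krt18, Krt19, Krt20, Vil1 and Cdx2) were present in every library.

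Zbp1 differed most among the 10 genes, 12.4-fold higher in the p53-/- SI, followed by Casp4 at 2.29-fold, Mlkl at 1.93-fold and Casp1 at 1.51-fold. The kinases Ripk1 and Ripk3, the brake Casp8 and the sensor Nlrp6 had overlapping levels in WT and p53-/-. Aim2 was a little higher and Gsdmd a little lower in both p53-/- libraries. In bulk SI, fewer cells of a type and less RNA per cell cannot be told apart, and this holds for every level below. Both p53-/- libraries were above both WT libraries for 5 of the 10 genes, where 26.4% of all genes tested were, and below them for 1 of 10, where 24.4% were. With edgeR's quasi-likelihood test and a Benjamini-Hochberg adjusted threshold of 0.05, 1 of the 10 passed as higher (Zbp1) and 0 as lower, beside 0.298% and 0.193% of all genes. With DESeq2, 2 passed as higher (Zbp1 and Casp4) and 0 as lower, beside 5.05% and 3.5%. The genes were chosen on this contrast, so nothing is read from these counts. The median log2 fold change over the 10 genes was 0.21, and -0.01 over all genes tested.

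**Figure D1:**
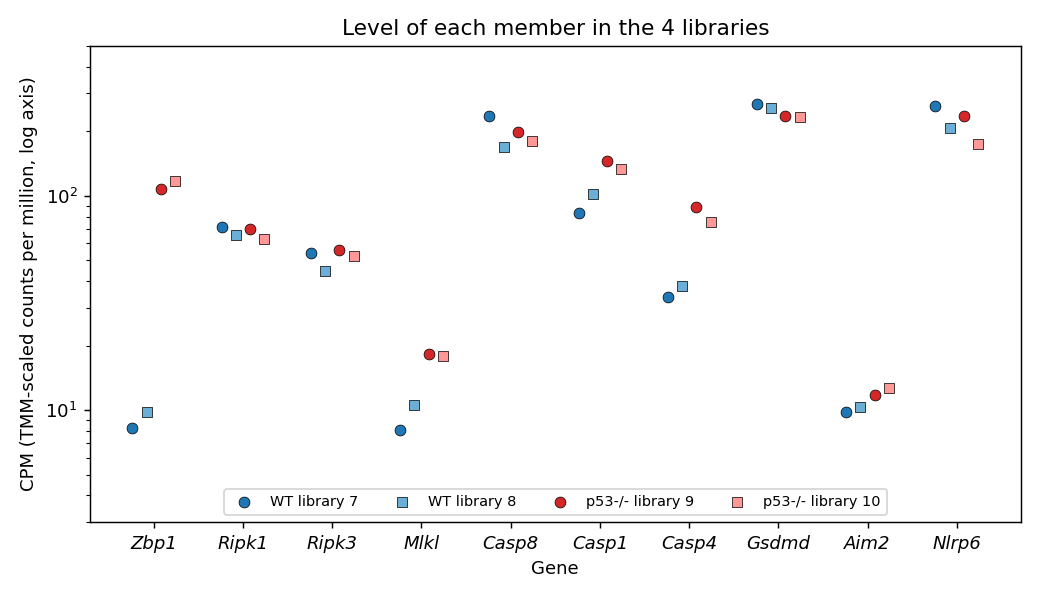
Level of each of the 10 genes in CPM after TMM scaling (log axis), with 1 point for each library and circles and squares for the 2 libraries of a genotype. Zbp1 sits between 8.29 and 9.80 CPM in WT and at 107 and 117 CPM in p53-/-, while the points of Ripk1, Ripk3, Casp8 and Nlrp6 overlap between genotypes.

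Zbp1 (ENSMUSG00000027514), the sensor at the top of the pathway, had 134 and 151 counts in WT libraries 7 and 8 and 2450 and 2356 counts in p53-/- libraries 9 and 10. As CPM, Zbp1 was at 8.29 and 9.80 in WT and at 107 and 117 in p53-/-. The genotypes were far apart and the libraries of each genotype close together. The mean was 9.04 ± 1.06 CPM in WT and 112 ± 6.94 CPM in p53-/- (SD, n = 2), a log2 fold change of 3.63 with a standard error of 0.18. On the log2 scale, library 8 was 0.24 above library 7 and library 10 was 0.13 above library 9, so neither of these gaps came near the gap between genotypes. Zbp1 ranked 254 among the 16094 tested genes by log2 fold change.

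Ripk1 (ENSMUSG00000021408) and Ripk3 (ENSMUSG00000022221) encode the kinases that meet ZBP1 or each other through a shared RHIM motif. Ripk1 was at 71.7 and 65.3 CPM in WT and at 69.7 and 62.8 CPM in p53-/-. Its libraries interleaved, with a log2 fold change of -0.05 and a standard error of 0.15. In the GENCODE M21 annotation, 241 exonic bases of Ripk1 overlap Serpinb6a on the opposite strand, which had 16372, 10048, 9793 and 8724 counts in libraries 7 to 10. Whether the authors counted reads by strand is not given in the sources used here, so reads of both genes there may not be separated. Ripk3, the kinase that acts on MLKL, was at 54.0 and 44.6 CPM in WT and at 56.1 and 52.2 CPM in p53-/-. Library 7 lay between the p53-/- libraries, and the log2 fold change was 0.14 with a standard error of 0.17.

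Mlkl (ENSMUSG00000012519), the executor that opens the membrane, had 131 and 163 counts in WT and 418 and 358 counts in p53-/-. Its level was 8.11 and 10.6 CPM in WT and 18.3 and 17.8 CPM in p53-/-. Both p53-/- libraries were above both WT libraries and nearly equal to each other. The mean was 9.34 ± 1.75 CPM in WT and 18.1 ± 0.363 CPM in p53-/- (SD, n = 2), a log2 fold change of 0.95 with a standard error of 0.27. Casp8 (ENSMUSG00000026029), the protease that restrains necroptosis and carries out death receptor apoptosis, was at 237 and 168 CPM in WT and at 197 and 180 CPM in p53-/-. The p53-/- libraries fell between the WT libraries, and the log2 fold change was -0.10 with a standard error of 0.23.

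Of the inflammasome sensors, Aim2 (ENSMUSG00000037860), which binds cytosolic double-stranded DNA, had 158 and 160 counts in WT and 269 and 256 counts in p53-/-. As CPM it was at 9.78 and 10.4 in WT and at 11.8 and 12.7 in p53-/-. The genotypes did not overlap but were close, with a log2 fold change of 0.28 that is about its standard error of 0.26. Nlrp6 (ENSMUSG00000038745), a sensor found in the intestinal epithelium, was at 261 and 206 CPM in WT and at 235 and 174 CPM in p53-/-. Its lowest value was in library 10 and its highest in library 7, with both genotypes spread over a similar range. The log2 fold change was -0.19 with a standard error of 0.24.

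Casp1 (ENSMUSG00000025888), the inflammasome protease that matures IL-1β and IL-18, was at 82.9 and 102 CPM in WT and at 145 and 134 CPM in p53-/-. All p53-/- values were above all WT values. The mean was 92.3 ± 13.3 CPM in WT and 139 ± 7.93 CPM in p53-/- (SD, n = 2), a log2 fold change of 0.59 with a standard error of 0.18. Casp4 (ENSMUSG00000033538), the mouse gene of caspase-11, had 546 and 583 counts in WT and 2025 and 1509 counts in p53-/-. As CPM it was at 33.8 and 37.8 in WT and at 88.8 and 75.1 in p53-/-. The gap between genotypes was larger than the gap within either, and the log2 fold change was 1.19 with a standard error of 0.17. Casp1 and Casp4 are neighbours on chromosome 9 and paralogs, so some of their reads may have been split between them or with Casp12. Gsdmd (ENSMUSG00000022575), the pore former both proteases cleave, was at 269 and 257 CPM in WT and at 236 and 233 CPM in p53-/-. It was the only one of the 10 genes with both p53-/- libraries below both WT libraries, by a log2 fold change of -0.16 with a standard error of 0.18.

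Promoters were looked up for the 10 genes in RefSeq sequence of build GRCm38.p6, as windows from 250 bases before to 50 bases after each start. Of the 10 genes, 8 had an entry, with 10 promoters in all, and Zbp1 and Gsdmd had none. The 250 bases before the start are printed 5′ to 3′ for Casp4 at chr9:5308599-5308848 on the + strand, Casp1 at chr9:5298267-5298516 on the + strand and Mlkl at chr8:111338206-111338455 on the - strand, because these are the genes with an entry that differed most between genotypes.
Casp4: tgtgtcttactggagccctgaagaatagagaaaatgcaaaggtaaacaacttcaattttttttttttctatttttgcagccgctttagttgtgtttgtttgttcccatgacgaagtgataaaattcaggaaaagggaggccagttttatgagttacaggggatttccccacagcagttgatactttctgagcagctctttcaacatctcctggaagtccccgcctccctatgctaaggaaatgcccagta
Casp1: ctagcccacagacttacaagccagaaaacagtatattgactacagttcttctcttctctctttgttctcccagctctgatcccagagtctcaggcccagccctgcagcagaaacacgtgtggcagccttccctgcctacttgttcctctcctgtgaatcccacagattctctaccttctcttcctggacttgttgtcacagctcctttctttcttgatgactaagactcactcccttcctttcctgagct
Mlkl: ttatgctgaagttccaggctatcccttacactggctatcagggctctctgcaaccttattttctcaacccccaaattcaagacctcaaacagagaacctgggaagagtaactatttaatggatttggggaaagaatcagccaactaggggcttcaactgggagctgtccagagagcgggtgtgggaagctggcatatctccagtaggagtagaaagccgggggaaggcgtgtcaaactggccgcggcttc

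Each promoter was searched on both strands for the interferon-stimulated response element (ISRE) core, which is 2 copies of GAAA separated by 2 bases, for the interferon gamma activated site (GAS) core TTCNNNGAA, and for the p53 decamer. Of 32851 promoters in the table, 3.44% held the ISRE core, 8.3% the GAS core and 8.36% the p53 decamer. The promoters of Casp4, Casp1, Mlkl, Ripk3, Casp8, Aim2 and Nlrp6 held none of the 3, which says only that these letters are not in these windows. Among the 10 genes, only the second promoter of Ripk1 held a match, with an ISRE core 5 bases before the start and GAS cores 108 and 11 bases before it. The ISRE core of Ripk1 is printed with 10 bases on either side, with its letters in capitals, at chr13:34002859-34002888 on the + strand.
Ripk1: aacgttcccgGAAATCGAAAagcgcggaac

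Levels of different genes were compared only per length, as RPKM (CPM per kilobase of the merged exons in GENCODE M21). In WT the order of mean RPKM was Gsdmd at 111, Casp8 at 70.0, Casp1 at 61.6, Nlrp6 at 46.0, Ripk3 at 21.5, Casp4 at 9.65, Ripk1 at 8.21, Mlkl at 4.06, Aim2 at 2.88 and Zbp1 at 2.56. Casp8 and Casp1 overlapped in WT, and the other neighbours in that order did not. Zbp1 was the lowest of the 10 genes in WT, at 2.35 and 2.78 RPKM, and the fifth in p53-/-, at 30.4 and 33.2 RPKM, above Ripk3. In p53-/- the order was Gsdmd at 98.8, Casp1 at 92.9, Casp8 at 65.2, Nlrp6 at 40.2, Zbp1 at 31.8, Ripk3 at 23.6, Casp4 at 22.1, Ripk1 at 7.94, Mlkl at 7.84 and Aim2 at 3.50. Ripk3 and Casp4 overlapped in p53-/-, as did Ripk1 and Mlkl. Zbp1 made up 0.668% and 0.860% of the summed RPKM of the 10 genes in WT and 7.44% and 8.77% in p53-/-. With the length of the longest protein-coding transcript instead, Zbp1 was at 4.55 RPKM in WT, above Aim2, and at 56.5 RPKM in p53-/-, where Casp4 stood just above it at 57.1.

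**Figure D2:**
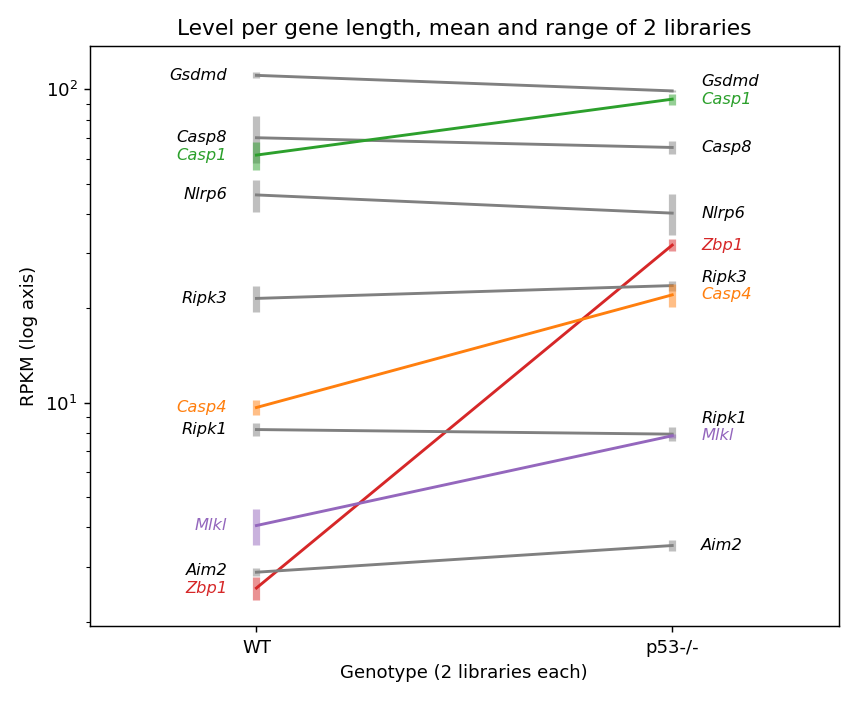
Mean RPKM (log axis) of each gene in WT and p53-/-, joined by a line, with vertical bars from the lower to the higher of the 2 libraries. The line of Zbp1 runs from 2.56 to 31.8 RPKM and crosses those of Aim2, Mlkl, Ripk1, Casp4 and Ripk3, while Casp1 goes from 61.6 to 92.9 RPKM, past Casp8.

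The ratio of RPKM between partners was taken within each library, where library size cancels. In bulk SI the transcripts of a ratio may come from different cells, so these ratios do not give the make-up of a complex. Zbp1 stood at 0.0997 and 0.143 of Ripk3, its kinase partner, in WT and at 1.24 and 1.46 of it in p53-/-. The sensor was thus the scarcer transcript in WT and the more abundant one in p53-/-. Ripk3 to Ripk1 was 2.74 and 2.48 in WT and 2.93 and 3.03 in p53-/-. Mlkl to Ripk3 was 0.149 and 0.236 in WT and 0.325 and 0.340 in p53-/-. Casp8 to Ripk3 was 3.47 and 2.99 in WT and 2.79 and 2.73 in p53-/-, a narrow range. Gsdmd to Casp1 was 2.05 and 1.59 in WT and 1.03 and 1.10 in p53-/-. Casp4 to Casp1 was 0.165 and 0.150 in WT and 0.247 and 0.227 in p53-/-. These ratios depend on the gene length used. With the longest protein-coding transcript, the ratio of mean RPKM was 0.405 in WT and 0.614 in p53-/- for Casp4 to Casp1, 2.38 and 1.41 for Gsdmd to Casp1, and 0.181 and 2.05 for Zbp1 to Ripk3.

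Among 13988 protein-coding genes that are not members, the 5 whose centred log2 CPM over the 4 libraries lay nearest to that of Zbp1 were Sult6b2, Cxcl9, H2-DMb1, Gzma and Olfr56, with root mean square differences from 0.125 to 0.232. Cxcl9, a chemokine that attracts T cells, had 21 and 30 counts in WT and 594 and 479 counts in p53-/-. H2-DMb1, which loads peptides onto MHC class II, was at 6.19 and 10.2 CPM in WT and at 87.6 and 115 CPM in p53-/-. Gzma, a protease of cytotoxic granules, was at 4.58 and 8.05 CPM in WT and at 66.0 and 83.2 CPM in p53-/-. These genes were picked for likeness to Zbp1 in the same libraries, so their step between genotypes follows from the choice. Cxcl9, H2-DMb1 and Gzma were each more uneven within WT than Zbp1. Sult6b2, a sulfotransferase, had 0 counts in both WT libraries and 30 and 24 counts in p53-/-. Its edgeR log2 fold change was 7.55 against 3.63 for Zbp1, so its nearness rests on the prior count of 2 in the log2 CPM. Olfr56, annotated as an olfactory receptor, had 8 and 6 counts in WT and 179 and 133 counts in p53-/-, and its gene overlaps the interferon-inducible GTPase genes Ifi47, Tgtp1 and Tgtp2.

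The other genes of necroptosis and death receptor signalling were taken as a list of 27, of which 27 were tested and 0 passed in either direction with edgeR's quasi-likelihood test. At an unadjusted p under 0.05, 5 were higher and 3 lower (10% and 7.92% of all genes tested were), and DESeq2 called 2 higher and 2 lower (5.05% and 3.5% of all genes). The median log2 fold change was -0.01, the same as over all genes tested, with 13 genes higher and 14 lower. The ligands differed most. Tnf, the ligand of the TNF receptor, was at 2.54 and 1.62 CPM in WT and at 7.80 and 13.2 CPM in p53-/- (log2 fold change 2.33, standard error 0.47, edgeR adjusted p = 0.106). Tnfsf10, the death ligand TRAIL, was at 26.4 and 16.8 CPM in WT and at 105 and 76.7 CPM in p53-/- (log2 fold change 2.07, edgeR adjusted p = 0.0578). Its receptor Tnfrsf10b, a p53 target, was at 25.2 and 27.1 CPM in WT and at 7.19 and 7.01 CPM in p53-/- (log2 fold change -1.88, edgeR adjusted p = 0.0510). The death receptor Fas had a log2 fold change of 0.92, the adaptor Ticam1 of TLR3 signalling -0.77 and the TNF receptor Tnfrsf1a -0.51, and none of these passed the threshold.

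In the list of inflammasome sensors and their adaptor, 13 of 15 genes were tested and 1 passed. It was Nlrp1b, which was lower (0.193% of all genes were). Nlrp1b, a sensor of pathogen proteases, had 328 and 313 counts in WT and 8 and 13 counts in p53-/-. The level in both p53-/- libraries was under 1 CPM, against 20.3 CPM in each WT library (log2 fold change -5.34, standard error 0.43, edgeR adjusted p = 0.0271). It did not pass without library 10, and was not tested where at least 10 counts were asked of every library. Its paralog Nlrp1a had 3, 6, 0 and 0 counts in libraries 7 to 10 and was not tested, and reads may have been split between them. Nlrp1b lies on chromosome 11, as does Trp53, and the 70 tested genes between the pair had log2 fold changes from -2.41 to 4.22, with a median of -0.16. That median does not speak to Nlrp1b alone. Whether its reads depend on sequence linked to Trp53 in these mouse lines was not tested. Pycard, the adaptor ASC that joins sensors to caspase-1, was at 68.6 and 41.9 CPM in WT and at 107 and 115 CPM in p53-/- (log2 fold change 1.01, edgeR adjusted p = 0.154). Nlrp3, a sensor of membrane damage, had 0, 5, 12 and 11 counts in libraries 7 to 10, and Nlrp10 had 8, 9, 30 and 43. The sensors of bacterial flagellin and secretion, Naip1, Naip2, Naip5, Naip6 and Nlrc4, had log2 fold changes from -0.37 to -0.11, with reads that paralogs may share.

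Of the 14 inflammasome effectors and cytokines, 14 were tested and 0 passed with edgeR, while 2 were higher and 2 lower at an unadjusted p under 0.05 and DESeq2 called 1 higher and 2 lower, beside the same shares of all genes as above. Il18bp, the secreted inhibitor of IL-18, was at 2.41 and 4.15 CPM in WT and at 23.8 and 32.9 CPM in p53-/- (log2 fold change 3.11, standard error 0.38, edgeR adjusted p = 0.0510). Il18 itself was at 25.9 and 11.2 CPM in WT and at 19.9 and 21.2 CPM in p53-/-, with overlap. The inhibitor thus had the higher value in both p53-/- libraries and the cytokine did not. Il1b had 8 and 20 counts in WT and 59 and 79 counts in p53-/- (log2 fold change 1.86, edgeR adjusted p = 0.230), and Il1a had a log2 fold change of 1.65. Il1rn, the antagonist of the IL-1 receptor, was at 60.6 and 43.3 CPM in WT and at 18.8 and 24.4 CPM in p53-/- (log2 fold change -1.27, edgeR adjusted p = 0.103). Gsdme, a gasdermin that caspase-3 cleaves, had a log2 fold change of -1.11, and Serpinb1a, an inhibitor of neutrophil proteases, of -0.66.

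The guanylate-binding proteins (GBPs) and immunity-related GTPases, which open pathogen vacuoles and expose lipopolysaccharide and DNA to caspase-11 and AIM2, lay to one side of 0. All 12 were tested, all 12 had both p53-/- libraries above both WT libraries (26.4% of all genes tested did), and the median log2 fold change was 2.45. Irgm1, a regulator of these GTPases, passed the threshold, and the other 11 did not. It had 392 and 438 counts in WT and 1883 and 2013 counts in p53-/- (log2 fold change 1.79, standard error 0.18, edgeR adjusted p = 0.0410). Irgm1 did not pass with upper-quartile factors, library size only or at least 10 counts in every library, nor without library 9 or library 10. DESeq2 called 11 of the 12 higher (5.05% of all genes were), where edgeR called 1 (0.298% of all genes were). Gm12250, which encodes Irgb10, was at 0.805 and 3.44 CPM in WT and at 24.5 and 28.1 CPM in p53-/- (log2 fold change 3.63, edgeR adjusted p = 0.0972). Igtp and Gbp4 had log2 fold changes of 3.44 and 3.22, and Gbp5, Gbp2 and Gbp3 of 2.05, 2.04 and 1.63. Summed over the list, the level was 57.9 and 120 CPM in WT and 452 and 566 CPM in p53-/-, so WT library 8 was 1.05 above WT library 7 on the log2 scale. Without library 8, the median log2 fold change was 3.61. Reads may have been split among these paralogs. Irgm1, Irgm2, Igtp and Gm12250 lie on chromosome 11, as does Trp53, and the part of sequence linked to Trp53 was not tested for them.

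Of the 12 GTPase genes, 8 had a RefSeq promoter entry, with 9 promoters, and the ISRE core was in 8 promoters of all 8 genes, beside 3.44% of all promoters. The GAS core was in promoters of 5 of these genes and the p53 decamer in those of 3. The ISRE cores are printed with 10 bases on either side of the core farthest from the start, in capitals and 5′ to 3′ on the strand of each gene, to set them beside the promoters of Casp4, Casp1 and Mlkl, where no core was found. A TTTC pair is the same core read on the other strand, and the windows of Gbp3 and Irgm1 hold a second core that shares 4 bases with the first.
Gbp2: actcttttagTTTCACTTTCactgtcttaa
Gbp3: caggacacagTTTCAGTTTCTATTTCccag
Gbp5: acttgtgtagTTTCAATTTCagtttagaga
Gbp7: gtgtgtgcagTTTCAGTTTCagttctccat
Gm12250: cctcggtggcTTTCAGTTTCtatgcctaga
Irgm1: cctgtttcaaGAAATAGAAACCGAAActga
Irgm2: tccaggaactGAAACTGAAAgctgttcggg
Igtp: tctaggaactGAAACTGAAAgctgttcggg
In order, these windows lie at chr3:142620594-142620623, chr3:142559989-142560018, chr3:142496759-142496788, chr3:142530273-142530302, chr11:58183742-58183771, chr11:48871431-48871460, chr11:58214903-58214932 and chr11:58199512-58199541, all on the + strand but Irgm1, and the first cores lie 59, 45, 165, 53, 91, 30, 64 and 34 bases before the start.

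In the list of interferon signalling and response, 21 of 23 genes were tested and 1 passed with edgeR. It was Cxcl9, which was higher (0.298% of all genes were). Cxcl9 was at 1.30 and 1.95 CPM in WT and at 26.0 and 23.8 CPM in p53-/- (log2 fold change 3.94, standard error 0.33, edgeR adjusted p = 0.0279), and it did not pass without library 9 or library 10. Of the 21, 18 had a positive log2 fold change, and the median was 1.37 (-0.01 over all genes tested). DESeq2 called 13 higher and 1 lower, beside 5.05% and 3.5% of all genes. Cxcl10, a chemokine, and Ifit1, an antiviral protein, had log2 fold changes of 2.22 and 2.14. Irf1, a transcription factor of the interferon response, had 1.37. The receptor chains Ifngr1 and Ifnar1 had -0.66 and -0.19 and the transcription factor Irf3 had -0.22. Of the ligands, Ifng had 0, 2, 8 and 13 counts in libraries 7 to 10 and Ifnb1 had 0 counts in every library, and neither was tested.

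The cytosolic nucleic acid sensors, which share ligands with ZBP1 and AIM2, had 9 tested genes, of which 0 passed with edgeR and 5 were higher at an unadjusted p under 0.05, where 10% of all genes were. DESeq2 called 2 higher, beside 5.05% of all genes. The median log2 fold change was 0.59. Sting1, the adaptor of DNA sensing, was at 3.59 and 6.42 CPM in WT and at 17.8 and 26.9 CPM in p53-/- (log2 fold change 2.16, edgeR adjusted p = 0.101). Cgas, the DNA sensor upstream of it, and Samhd1, a nucleotide hydrolase, each had a log2 fold change of 1.44. Ifih1, the RNA sensor MDA5, had 0.26, Mavs, the adaptor of RNA sensing, -0.48 and the helicase Dhx36 -0.13. Trex1 had 0 counts in every library and was not tested. Over all these lists together, without the 10 genes, 2 of 96 tested genes passed as higher and 1 as lower with edgeR. Of all genes, 0.298% and 0.193% did. DESeq2 called 30 higher and 6 lower, beside 5.05% and 3.5% of all genes.

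**Figure D3:**
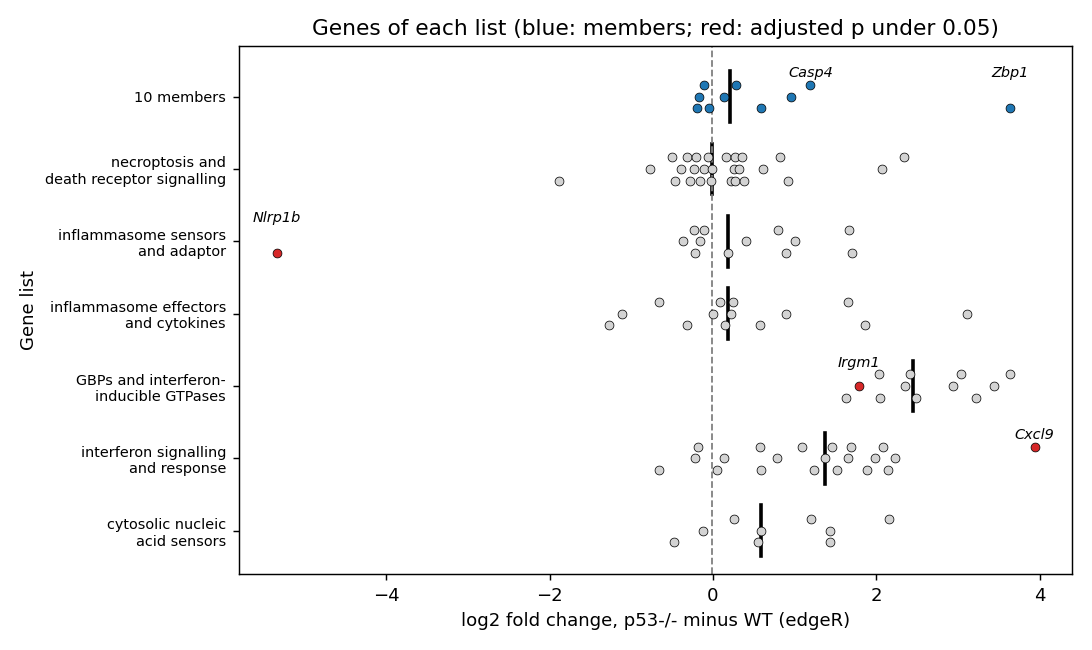
Log2 fold change, p53-/- minus WT, of the tested genes of each list (1 point a gene), with the list median as a black bar and the median of all genes tested as a dashed line. The 12 GTPases lie between 1.63 and 3.63, while necroptosis and death receptor genes lie around a median of -0.01, blue marks the 10 genes, given as a description, and red marks Nlrp1b, Irgm1 and Cxcl9, which passed the threshold.

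Between genotypes, markers of immune cells differed in the same direction as the higher genes. The 3 pan-leukocyte markers (Ptprc, Coro1a and Laptm5) were all higher in both p53-/- libraries, where 26.4% of all genes tested were. Their summed level was 18.4 and 48.5 CPM in WT and 120 and 511 CPM in p53-/-. All 10 T cell markers were higher in both p53-/- libraries, beside the same share of all genes. Their sum was 7.80 and 15.5 CPM in WT and 74.6 and 147 CPM in p53-/-. Within p53-/-, these sums were higher in library 10 than in library 9, whereas Zbp1 differed little and Casp4, Casp1 and Mlkl were slightly lower. Of 10 macrophage and monocyte markers, 8 were higher in both p53-/- libraries, beside the same share. The sum over the 10 ran from 78.9 to 200 CPM in WT and from 254 to 686 CPM in p53-/-. The 7 dendritic cell markers were all higher in both, beside the same share, with sums from 3.34 to 14.8 CPM and from 27.8 to 50.6 CPM. Of 8 B cell markers, 7 were tested and all 7 were higher in both p53-/- libraries, beside the same share. Their sum was 2.17 and 3.05 CPM in WT, where Pax5 and Fcer2a had 0 counts, and 25.8 and 523 CPM in p53-/-.

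Among the markers of other cell types, the crypt stem cell marker Olfm4 stood out, with 769 and 246 counts in WT and 10802 and 10559 counts in p53-/- (log2 fold change 3.97, standard error 0.55, edgeR adjusted p = 0.0587). Of 6 neutrophil markers, 4 had too few counts to be tested, and S100a8 had 0, 0, 8 and 0 counts in libraries 7 to 10. The 6 M cell and follicle markers summed to 30.9 and 35.2 CPM in WT and to 72.8 and 257 CPM in p53-/-. The 8 epithelial markers summed to 23177 and 16730 CPM in WT and to 15576 and 12774 CPM in p53-/-, and all 8 had negative log2 fold changes. The 7 enterocyte markers summed to 22770 and 23052 CPM in WT and to 17685 and 14784 CPM in p53-/-, and the 5 goblet cell markers to 13487 and 12485 CPM in WT and to 11843 and 9190 CPM in p53-/-. The 6 crypt stem and Paneth cell markers, Olfm4 among them, summed to 9556 and 6552 CPM in WT and to 11627 and 13581 CPM in p53-/-. None of these marker genes passed the edgeR threshold. DESeq2 called higher 10 T cell, 7 B cell, 5 M cell and follicle, 3 dendritic cell, 2 pan-leukocyte and 2 macrophage and monocyte markers. It also called higher 2 crypt stem and Paneth cell markers, Olfm4 among them (DESeq2 adjusted p = 1.64e-16). Lower with DESeq2 were 2 epithelial and 3 enterocyte markers. Of all genes, DESeq2 called 5.05% higher and 3.5% lower. On the log2 scale, library 10 exceeded library 9 by 4.34 in the B cell sum, 2.09 in the pan-leukocyte sum, 1.43 in the macrophage and monocyte sum, 0.98 in the T cell sum, 0.86 in the dendritic cell sum and 0.13 in Zbp1. Of single markers, the T cell marker Cd8a was even between these libraries, at 19.9 and 19.8 CPM. The other T cell markers were higher in library 10, by log2 differences from 0.47 (Cd3e) to 3.33 (Cd2). The dendritic cell marker Xcr1, with 29 and 28 counts, was at 1.27 and 1.39 CPM. The other dendritic cell markers were higher in library 10 by 0.35 (Zbtb46) to 2.75 (Flt3). Of the macrophage and monocyte markers, Adgre1, Itgam and Fcgr1 were lower in library 10, with log2 differences of -0.41, -0.31 and -0.06. Cd14 was even, at 0.01. The other markers of that list were higher by 0.36 (Csf1r) to 2.95 (Lyz2), and Lyz2 went from 53.2 CPM in library 9 to 411 CPM in library 10. With library 10 left out, the median log2 fold change of the pan-leukocyte markers was 1.94 in place of 2.99 and that of the T cell markers 3.13 in place of 3.68, while the value of Zbp1 was 3.62 in place of 3.63. The part of cell composition in the levels of Zbp1, Casp4, Mlkl, Casp1 and the GTPases was not tested.

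**Figure D4:**
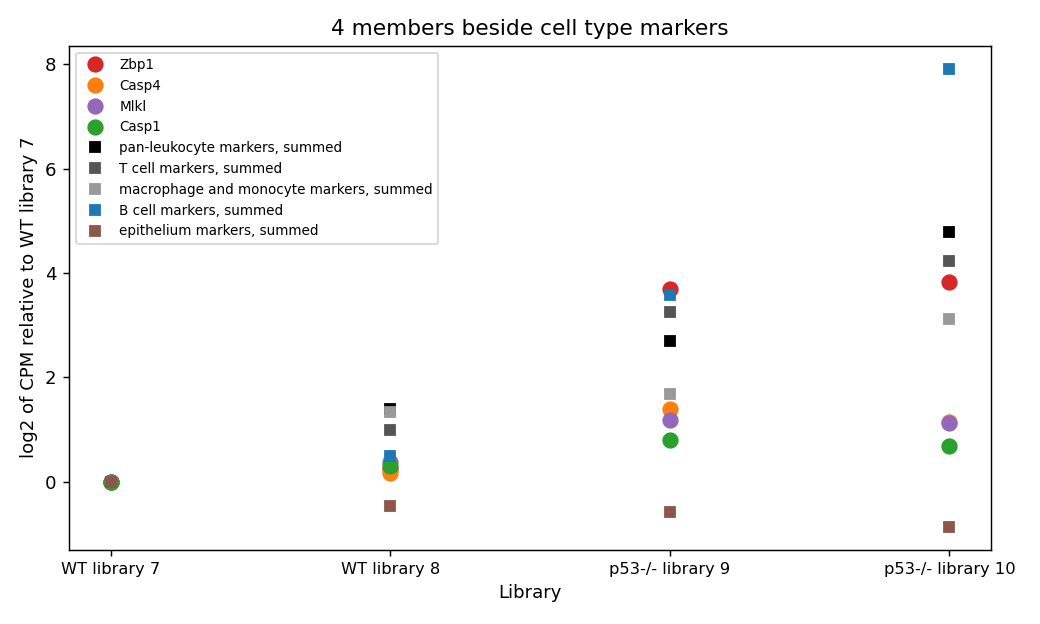
Log2 of the CPM of 4 genes (circles) and of the summed CPM of marker lists (squares) in each library, relative to WT library 7. Zbp1 is at about the same height in libraries 9 and 10. The B cell, pan-leukocyte, macrophage and T cell sums are 4.34, 2.09, 1.43 and 0.98 higher in library 10 than in library 9. Within the macrophage sum, Lyz2 went from 53.2 CPM in library 9 to 411 CPM in library 10, while Adgre1, Itgam and Fcgr1 were lower in library 10.

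The fit was repeated 4 times, each time with 1 library removed. The difference of Zbp1 on the log2 scale stayed between 3.53 and 3.75, that of Casp4 between 1.06 and 1.36, that of Mlkl between 0.78 and 1.15 and that of Casp1 between 0.46 and 0.74. Aim2 stayed between 0.25 and 0.33 and Gsdmd between -0.20 and -0.10. These 6 genes kept their sign in all 4 fits. Casp8 had -0.33 without library 8 and 0.17 without library 7. Ripk1 had -0.13 without library 9 and 0.08 without library 10, and Nlrp6 had -0.43 and 0.07 without the same libraries. Ripk3 had 0.29 without library 7 and -0.0022 without library 8. The direction of these 4 genes thus rested on single libraries. Without library 10, no gene of the table passed the edgeR threshold, Zbp1 included, and 1201 genes had an unadjusted p under 0.05.

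**Figure D5:**
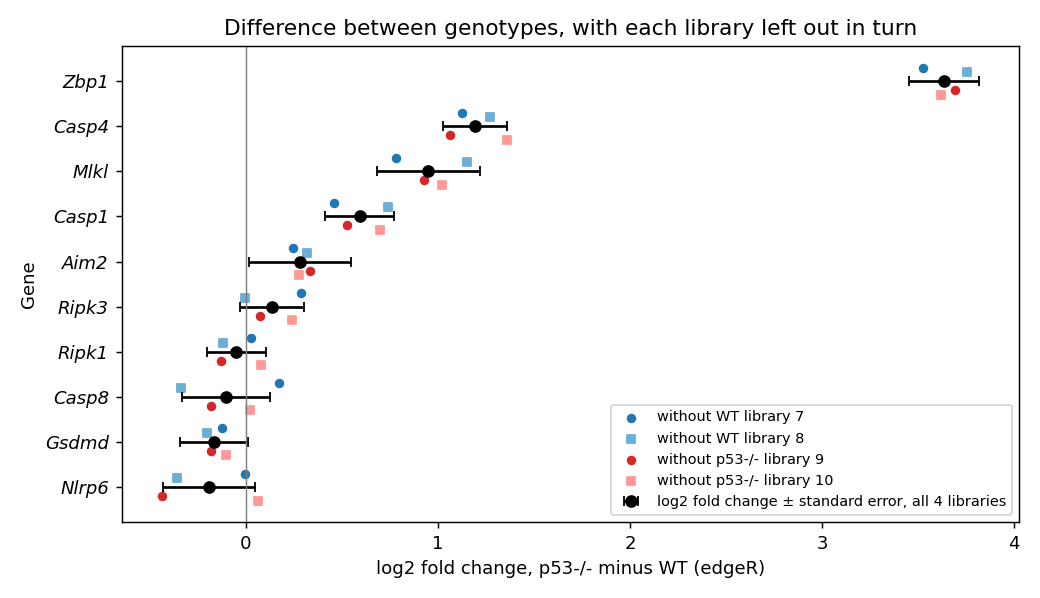
Log2 fold change, p53-/- minus WT, of each gene with its standard error (black, all 4 libraries) and with 1 library removed from the fit (coloured points). The points of Zbp1 lie between 3.53 and 3.75, and those of Casp8, Ripk1, Ripk3 and Nlrp6 lie on both sides of 0.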

How the data were processed

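Poly-A RNA of the SI of 2 WT and 2 p53-/- mice was sequenced. What the authors deposited are raw read counts for each gene, not normalized. Per the submitters' processing notes, fastp, HISAT2 2.0.5, featureCounts 1.5.0-p3 and DESeq2 1.20.0 were used, and the genome build and the strand setting are not given in the sources used here. Column names carry a genotype and a library number, not a replicate number. The study names its data points biological replicates, and counts within a genotype varied beyond sampling noise (chi-square per degree of freedom 48.0 in WT and 69.5 in p53-/-). If they did not come from separate animals, p-values measure only technical spread.

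Counts were scaled by TMM, filtered by filterByExpr and compared between genotypes in edgeR 4.0.16 (R 4.3.3). The two-sided quasi-likelihood test was used, with Benjamini-Hochberg adjustment over all genes (threshold 0.05). The procedure was also run on counts simulated with dispersions estimated from these libraries, which gives no independent error rate. Totals of 15005479 to 22173164 counts leave genes of few counts imprecise. Gene lengths came from GENCODE M21, which holds 91.8% of the identifiers, since the deposited table gave none, unlike what was planned. Log2 CPM used a prior count of 2. Promoters are RefSeq sequence of GRCm38.p6. Figures were drawn with matplotlib 3.10.9 in Python 3.11.15.

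The 10 genes and the gene lists were chosen with earlier results of these data known. Named are the members, list genes past the threshold and otherwise the 3 with the largest and the 3 with the smallest log2 fold change of a list, a few more whose role needed explaining, and the 5 protein-coding genes nearest to Zbp1. Alternatives were RLE factors, upper-quartile factors, library size only, DESeq2 1.42.0, a likelihood ratio test in edgeR, omitting the filter, a minimum of 10 counts in every library, dropping antigen receptor segments (immunoglobulin and T cell receptor), dropping the 50 most abundant genes, and dropping 1 library at a time.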

Additional observations from a re-analysis of the deposited data

How the results depend on the processing

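No paired analysis was possible because the columns carry no replicate numbers of the labels. With 2 libraries a genotype, counts of calls moved with the settings. In the main analysis 48 genes were higher and 31 lower in p53-/-. The numbers were 29 and 20 with upper-quartile factors, 26 and 20 with library size only, 813 and 563 with DESeq2, 833 and 462 with the likelihood ratio test, 1433 and 761 with no filter, and 24 and 18 with at least 10 counts in every library. Leaving out a library gave 0 to 680 higher and 0 to 344 lower. The extremes were library 10, whose loss left 0 of either, and library 8, whose loss gave 680 and 344. Of the 10 genes, 1 was higher in the main analysis, 2 with DESeq2, 2 with the likelihood ratio test, 3 unfiltered (Zbp1, Casp1 and Casp4), and 0 to 2 with a library left out. None was lower under any of these settings. Of the other pathway genes, 2 were higher and 1 lower in the main analysis. The numbers were 1 and 1 with upper-quartile factors and with library size only, 30 and 6 with DESeq2, 29 and 5 with the likelihood ratio test, 39 and 5 with no filter, 1 and 0 with at least 10 counts, and 5 and 2 without immunoglobulin and T cell receptor segments. Leaving out a library gave 0 to 28 higher and 0 to 3 lower. The cause of these shifts was not tested. With no filter, the median log2 fold change of all genes was 0.15 in place of -0.01. Lengths of the longest transcript were chosen after seeing the data, and they raised Casp4 from 9.65 to 25.0 RPKM in WT.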
